A study of Mus musculus
Rattus norvegicus and Rattus norvegicus and Mus musculus with 18 samples.

Results

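The mouse RNA of 1 pellet of 4T1 cells was compared with the mouse RNA of 5 rat lungs that had been collected from 4T1 tumor-bearing hosts, 6 of the 18 samples of the series. 4T1 is a mouse mammary carcinoma cell line that is known to spread from the mammary fat pad to the lung. The labels call all of the 4T1 cells wildtype and untreated. The lungs came from SRG rats, a strain known to lack Rag2 and Il2rg and with them mature B, T and NK cells, 27 days after 4T1 cells had been placed in the mammary fat pad, and they are labelled as lung metastasis. The labels give no growth conditions for the pellet: its growth text is the same transplant text as that of the tumors, and its stated use was as a mouse-only control for the assignment of reads to species. The pellet is 1 library, and nothing says how many cultures it came from. The other samples were the non-necrotic rim and the necrotic core of the primary tumors (5 each, also at day 27; 4 rats gave both a lung and a rim) and 2 mammary glands of rats with no transplant. Because the lungs hold rat host cells as well, each read had been assigned to mouse or rat, and a mouse value in a lung is a value of the 4T1 cells in it, apart from rat reads taken for mouse.

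All values are in CPM, mouse reads of a gene scaled to a common library size. Pellet counts were scaled over the 17672 mouse genes that it shares with the table of the lungs, and the lung values are the authors' deposited ones. A gene was kept when the mean of the pellet value and the mean lung value was at least 1 CPM, which 12832 genes were. It was called outside the lungs when the pellet lay at least 4-fold above the highest lung or at least 4-fold below the lowest. With 1 pellet against 5 lungs an exact two-sided permutation test cannot give a p below 0.333, and the pellet and the lungs were scaled in separate tables, so no difference between them was tested and every such difference is a description of these 6 libraries. Lung values are listed in the order Rat3789, Rat3869, Rat3875, Rat3876 and Rat3877.

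Cells that leave a dish for a tissue meet matrix, oxygen and nutrient gradients, host cytokines and immune cells. Keratins and claudins mark epithelial cells, collagens and fibronectin form the matrix around cells, interferon-stimulated genes report exposure to interferon, and many chemokines of the CXC family attract neutrophils. Genes of the cell cycle and of sterol synthesis follow growth and lipid supply. These groups were read as lists of genes.

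The pellet held 29446694 mouse and 213086 rat reads, of which 99.3% were mouse. The lungs held 15346400 to 26669410 mouse reads and 6976025 to 10015352 rat reads, of which 64.0% to 75.3% were mouse. Across mouse genes, Pearson's r between pairs of lungs was 0.971 to 0.989, and the lung of Rat3789 had the lowest r with the others, at 0.971 to 0.976. Of the markers of 4T1 carcinoma cells, Krt8, a keratin of simple epithelia, was at 1626 CPM in the pellet and 974 to 1532 CPM in the lungs, and its partner Krt18 was at 1364 against 812 to 1227 CPM. The other 3 markers of that list, Krt19, Cdh1 and Epcam, were detected in every lung but at lower levels than in the pellet, and rat reads taken for mouse were estimated at 10% or more of the mouse reads in at least 1 lung for all but Krt18. The carcinoma markers were thus present in both kinds of sample at unequal levels.

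Of the 12832 genes, 537 (4.18%) were outside with the pellet higher and 765 (5.96%) with the lungs higher. The kind of gene differed sharply between the directions. Of 841 pseudogenes, copies of genes that mostly make no protein, 451 were higher in the pellet and 19 in the lungs, and of 708 processed pseudogenes 425 were higher in the pellet. Of 764 long noncoding or unconfirmed genes, 3 were higher in the pellet and 260 in the lungs. Of 11185 protein-coding genes, 82 (0.733%) were higher in the pellet and 475 (4.25%) in the lungs. The median difference, pellet minus lung on the log2 scale, was 2.68 for pseudogenes, -1.56 for long noncoding or unconfirmed genes and -0.18 for protein-coding genes.

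**Figure D1:**
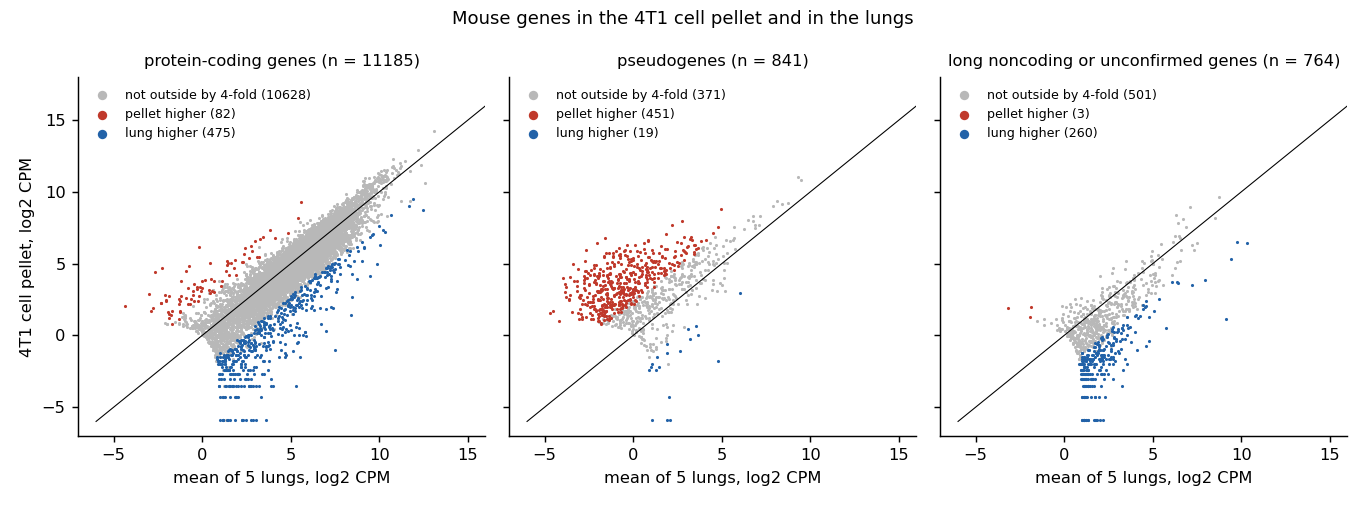
Each point is a mouse gene, with the log2 of its mean CPM in the 5 lungs on the x axis and its log2 CPM in the 4T1 cell pellet on the y axis, for protein-coding genes, pseudogenes and long noncoding or unconfirmed genes; red and blue points are outside all 5 lungs by at least 4-fold. Of the pseudogenes 451 of 841 lie far above the line of equal values, and of the protein-coding genes 82 of 11185.

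Pseudogenes took 2.35% of the pellet's mouse reads and 0.644% to 0.790% of those of the lungs. The rims, at 0.648% to 1.19%, and the cores, at 0.660% to 0.846%, were close to the lungs and not to the pellet. Pseudogenes named for ribosomal proteins were outside with the pellet higher in 83 of 122 cases. Mitochondrially encoded transcripts took 0.571% of the pellet's mouse reads and 1.64% to 2.30% of those of the lungs. The pellet thus stood apart from every lung, rim and core in its share of pseudogene reads. No label or header says whether the pellet and the xenograft libraries were counted in the same way, and its part in these differences was not tested. Protein-coding genes are described from here on unless a gene is named as noncoding. Shares of all genes printed beside the lists include pseudogenes and noncoding genes. Among protein-coding genes alone, 0.733% were outside with the pellet higher and 4.25% with the lungs higher.

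Gene length, taken as the exonic length of the longest annotated transcript, moved with the difference too. Among protein-coding genes in 8 bins of exonic length, the median difference was 0.50 on the log2 scale in the shortest (204 to 1626 bases) and -0.90 in the longest (6371 to 123179 bases), falling from each bin to the next. The median difference between lung and rim over the same bins stayed between -0.03 and 0.08. The protein-coding genes that were higher in the pellet had a median length of 2405 bases, those higher in the lungs 4077.5 bases, and all that passed 3450 bases. With the trend over length and base composition removed from the pellet, an alternative chosen after seeing the data, 68 of the 82 and 319 of the 475 genes stayed outside.

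**Figure D2:**
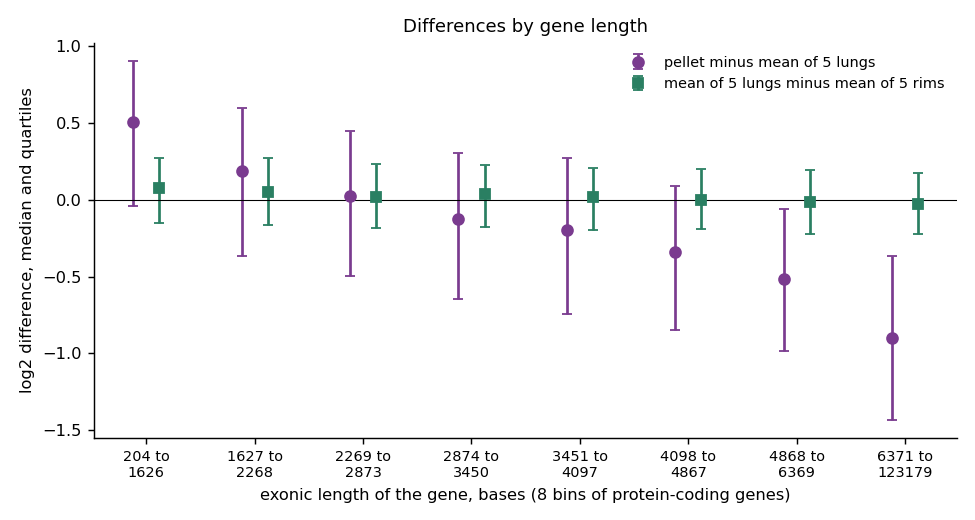
The x axis gives 8 bins of protein-coding genes by exonic length in bases, and the y axis the median log2 difference with its quartiles, for the pellet minus the mean of the 5 lungs (circles) and for the 5 lungs minus the 5 rims (squares). The pellet's median goes from 0.50 in the shortest genes to -0.90 in the longest, and the lung to rim medians stay between -0.03 and 0.08.

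Rat reads taken for mouse can only raise a lung's mouse value, so they can create a gene that is higher in the lungs and can only shrink one that is higher in the pellet. Their size was estimated per gene from the mammary glands without a transplant, in which 1.78% and 1.96% of reads had been assigned to mouse. A gene was called open to spillover when the estimate reached 10% of its mouse reads in any lung. Of the 475 protein-coding genes higher in the lungs, 53 were open to spillover and 422 were not. The estimate for the 475 had a median of 1.08% of the mouse reads. Of all 12832 genes, 3026 had no rat gene of the same symbol, and the estimate for those rests on the glands' expression alone.

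The lungs themselves bear on spillover through markers of host cells, of which 12 had at least 1000 rat reads in every lung. Lyz2, the lysozyme of macrophages, had 70258 to 145547 rat reads and 1 to 13 mouse reads. S100a9, a calcium-binding protein of neutrophils, had 1317 to 24526 rat reads and at most 1 mouse read, and Ptprc, the common antigen of leukocytes, had 2303 to 4301 rat reads and at most 4 mouse reads. Over the 9 markers under 1 CPM in the pellet, mouse reads came to at most 3.49 per 100 rat reads in any lung, reached for Tie1, a receptor of endothelial cells. Lyz2, S100a9, Ptprc and the hemoglobin gene Hba-a1 thus had at most 13 mouse reads in any lung. The gland-based estimate for Lyz2, over 100% of its mouse reads, is far above what was counted. Cd68, another macrophage marker, had 37 to 84 mouse reads, up to 3.05 per 100 rat reads, and was at 4.14 CPM in the pellet. Genes with no rat gene of the same symbol are not covered by these markers. The markers with many mouse reads in the lungs, Abca3 and Cav1, were also well above 1 CPM in the pellet, at 35.7 and 70.2 CPM.

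**Figure D3:**
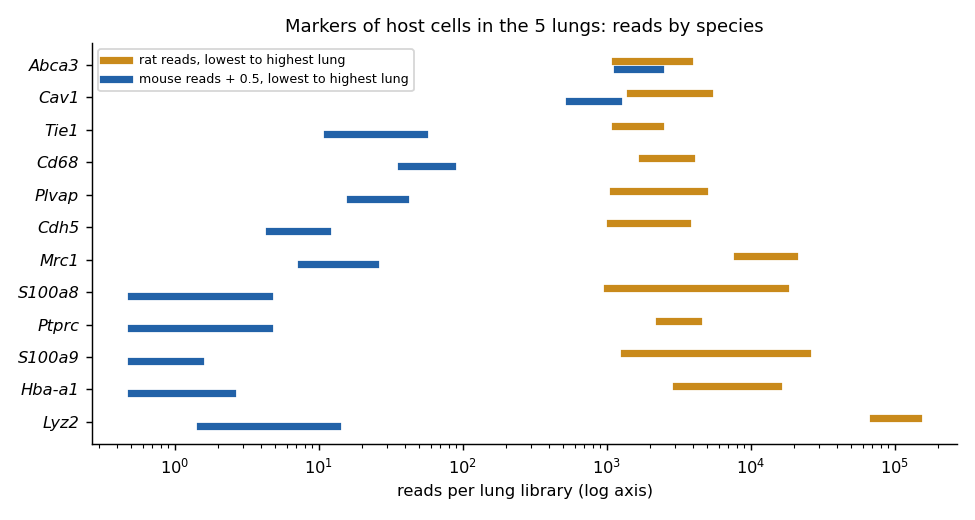
Bars run from the lowest to the highest of the 5 lungs on a log axis of reads per library, for rat reads (gold) and for mouse reads of the same symbol plus 0.5 (blue), for the 12 host markers with at least 1000 rat reads in every lung. Lyz2 has 70258 to 145547 rat reads against 1 to 13 mouse reads.

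Epithelial genes were higher in the pellet. Of 19 genes for junctions and keratins that passed, 15 lay above all 5 lungs, where 34.0% of all genes did. With the pellet higher 4 were outside by 4-fold, beside 4.18% of all genes and 0.733% of protein-coding genes. None was outside with the lungs higher. The list's median difference was 1.00 on the log2 scale, beside -0.16 for all genes. In bulk RNA such as this, fewer cells that express a gene and less RNA of it per cell cannot be told apart. Krt7, a keratin of glandular epithelium (chromosome 15, 101411043 to 101430313 on GRCm38), was at 616 CPM in the pellet, with an exact 95% Poisson interval of 607 to 625, and at 45.6, 84.8, 42.5, 43.9 and 26.6 CPM in the lungs. The lungs averaged 48.7 ± 21.6 CPM (SD, n = 5), and the pellet lay 7.26-fold above the highest. The rims, at 168 to 728 CPM, reached the pellet's level, and the cores, at 112 to 248 CPM, lay between.

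Krt19, the smallest keratin of simple epithelia, was at 115 CPM in the pellet and at 6.21, 21.2, 12.6, 8.12 and 5.94 CPM in the lungs. Cldn3, a claudin of tight junctions, was at 68.3 CPM in the pellet and at 3.91, 13.1, 1.42, 5.98 and 2.25 CPM in the lungs. For both genes the lung of Rat3869 was the highest, and the pellet still lay 5.42-fold and 5.20-fold above it. Rims and cores again spanned higher levels of Cldn3, at 21.2 to 98.1 and 46.1 to 90.4 CPM, and the pellet lay inside both ranges. Ovol1, a transcription factor of epithelial identity, was at 3.32 CPM in the pellet and 0.031 to 0.296 CPM in the lungs. Just under the 4-fold line, Cldn4 was at 70.4 CPM against 3.23 to 18.5 CPM.

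Other members of the epithelial list differed less or lay the other way. Cdh1, the cadherin of epithelial junctions, was at 208 CPM in the pellet and 16.2 to 100 CPM in the lungs, and Epcam, a surface antigen of epithelial cells, was at 152 against 40.8 to 109 CPM. Tjp1, the scaffold of tight junctions, was lower in the pellet, at 93.4 against 184 to 319 CPM. Of the stratified and basal keratin genes, 5 of 10 in the table passed. Krt16 and Krt15 were outside with the pellet higher, beside 4.18% of all genes and 0.733% of protein-coding genes. Krt16 stood at 5.98 CPM in the pellet and at 0.139, 1.02, 0.412, 0.534 and 0.585 CPM in the lungs. The basal keratin Krt5 was at 0.017 against 0.028 to 0.400 CPM, while its partner Krt14, named after its values were seen, was at 32.0 CPM in the pellet and 0.654 to 9.72 CPM in the lungs, with 15.0 to 156 CPM in the rims and 2.92 to 8.94 CPM in the cores. Krt14 was lower in the lungs than in the rims by a log2 difference of -4.50 (SE 0.78, limma adjusted p = 0.003). Of the 19 epithelial genes 13 were open to spillover, and rat reads taken for mouse can only make the stated gaps smaller. Mouse reads taken for rat in the lungs were not estimated.

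The lungs were also lower than the rims in these genes, in a comparison that does not use the pellet. That comparison of the 5 lungs with the 5 rims, by limma on log2 values of 12970 genes, called 1285 genes (9.91%) higher and 1318 (10.2%) lower in the lung at a Benjamini-Hochberg adjusted p under 0.05; with total-count scaling the split was 1719 to 1109. Of 18 epithelial genes tested, 14 were called lower in the lung and none higher. Krt7 was lower by a log2 difference of -3.30 (SE 0.37, limma adjusted p = 0.000369), and Cldn3 by -3.91 (SE 0.56, limma adjusted p = 0.00111). Krt19 was lower by -2.20 (SE 0.42, limma adjusted p = 0.00497). The pellet enters none of these tests, but the same 5 lungs do, and their low values are common to both sets of differences. Every other gene given with a lung to rim test was likewise chosen by its lung values, so those tests are not separate support.

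The laminin and hemidesmosome genes, which tie epithelial cells to the basement membrane, divided by member. Lamb3, the beta chain of the epithelial laminin, was at 110 CPM in the pellet and at 5.06, 19.4, 11.7, 26.9 and 22.6 CPM in the lungs, 4.10-fold above the highest. It was the named gene nearest to the 4-fold line and fell under it with total-count scaling. Lamb3 was lower in the lungs than in the rims by a log2 difference of -3.68 (SE 0.49, limma adjusted p = 0.000735). Its partner chain Lama3 was higher in the pellet than in every lung without reaching 4-fold, at 24.1 against 1.77 to 12.5 CPM. The intracellular and receptor parts went the other way: Itgb4, the integrin chain of the hemidesmosome, was at 89.9 CPM in the pellet and at 523, 470, 523, 580 and 514 CPM in the lungs. Plec and Dst, large linkers from that integrin to keratin, were at 163 against 936 to 1390 CPM and at 71.6 against 488 to 614 CPM. Itgb4, Plec and Dst have exonic lengths of 6208, 15455 and 23279 bases, and all 3 came inside 4-fold once the trend over length and base composition was removed.

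Of 16 inflammatory genes that passed, 4 were outside with the pellet higher, beside 4.18% of all genes and 0.733% of protein-coding genes. With the lungs higher 3 were outside, beside 5.96% and 4.25%. The 4 with the pellet higher were the CXC chemokines Cxcl1, Cxcl3, Cxcl5 and Cxcl16. Another of that family, Cxcl10, lay within the range of the lungs. Cxcl5, a neutrophil attractant (chromosome 5, 90759360 to 90761624), was at 38.4 CPM in the pellet and at 2.32, 4.26, 4.71, 3.68 and 3.17 CPM in the lungs, an 8.15-fold gap to the highest. Cxcl3, of the same group, was at 22.1 CPM in the pellet and 0.340 to 0.770 CPM in the lungs. The rims held 0.071 to 0.485 CPM of Cxcl3 and the cores 0.077 to 0.805 CPM, so no xenograft library came near the pellet. Cxcl1, named after its values were seen, was at 163 CPM in the pellet and 5.26 to 20.6 CPM in the lungs, with 9.65 to 16.7 CPM in the rims and 14.4 to 36.8 CPM in the cores. Cxcl16, also named after its values were seen, was at 34.2 CPM in the pellet and 3.35 to 7.05 CPM in the lungs, and the rims, at 11.5 to 24.5 CPM, and cores, at 6.32 to 18.4 CPM, lay between or overlapped the lungs.

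Within the same list other factors differed little or lay the other way. Csf3, the granulocyte growth factor, was at 43.6 CPM in the pellet and 24.7 to 36.5 CPM in the lungs, and Ptgs2, the inducible prostaglandin synthase, was at 141 against 63.4 to 139 CPM. Csf1, the macrophage growth factor, was lower in the pellet, at 100 against 195 to 460 CPM. Il33, an alarmin cytokine, was at 0.460 CPM in the pellet, 13 reads, and at 11.7, 73.1, 35.3, 15.3 and 36.7 CPM in the lungs. Vcam1, an adhesion receptor for leukocytes, was at 47.8 CPM in the pellet and 223 to 393 CPM in the lungs. Lcn2, an iron-binding acute phase protein, was at 0.732 CPM in the pellet and 12.2 to 82.2 CPM in the lungs, but its spillover estimate was 203% of its mouse reads, and it came inside 4-fold when the estimate was subtracted.

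Outside the lists, the largest gaps with the pellet higher among genes not open to spillover were in genes of scattered function. Klk10, a secreted serine protease of the kallikrein family (chromosome 7, 43781035 to 43785410), was at 33.8 CPM in the pellet (95% Poisson interval 31.7 to 35.9) and at 0.496, 2.39, 2.28, 0.534 and 1.14 CPM in the lungs. Gadd45b, a stress-induced growth arrest gene, was at 94.1 CPM in the pellet and at 5.89, 11.5, 7.37, 7.33 and 7.11 CPM in the lungs. Npr3, the clearance receptor of natriuretic peptides, was at 50.3 CPM in the pellet and at 4.03, 6.58, 5.07, 5.14 and 4.96 CPM in the lungs. The gaps to the highest lung were 14.1-fold, 8.18-fold and 7.64-fold, each many times the SD of the lungs.

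Against the rims, the same lung values were lower for Gadd45b by a log2 difference of -0.77 (SE 0.18, limma adjusted p = 0.0126). They were lower for Npr3 by -1.97 (SE 0.24, limma adjusted p = 0.000522). Klk10 did not pass that test (log2 difference -0.41, SE 0.48, limma adjusted p = 0.570). The rims held 0.923 to 2.40 CPM of Klk10 and the cores 0.314 to 1.76 CPM, so that its high level was seen in the pellet and in no xenograft library. Neurl3, a ubiquitin ligase, and Rnd1, a small GTPase that loosens the actin cytoskeleton, had the same order, with 75.7 CPM against 3.31 to 9.47 CPM in the lungs and 41.7 against 2.76 to 8.45 CPM. Stc2, a secreted stanniocalcin, differed from those: the pellet's 13.9 CPM lay far above the lungs' 1.30 to 1.77 CPM but within the cores' 11.6 to 42.5 CPM.

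Hfm1, a helicase of meiosis, was at 13.7 CPM in the pellet and 0.178 to 0.888 CPM in the lungs. Hist1h2ap, a histone gene, was at 12 CPM against 0.535 to 0.815 CPM, and Prl2c3, a prolactin relative also called proliferin, at 36.4 against 1.06 to 4.94 CPM. Histone and proliferin genes have near-identical copies among which reads can be divided, and these levels are uncertain for that reason. Htr5b, a serotonin receptor, was at 10.4 CPM against 0.484 to 1.08 CPM. The remaining gene of the 12 had a clone name, no matched annotation and a 5.85-fold gap.

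Wider gaps with the pellet higher lay in protein-coding genes that are open to spillover and are named here after their values were seen. Wnt7a, a secreted Wnt ligand, was at 26.5 CPM in the pellet and 0.020 to 0.524 CPM in the lungs, a 50.7-fold gap, and Fgfbp1, a secreted carrier of fibroblast growth factors, at 71.3 against 0.297 to 1.43 CPM. The primary tumors held these transcripts in part: Fgfbp1 was at 5.41 to 22.6 CPM in the rims and 47.8 to 104 CPM in the cores, and Wnt7a at 2.07 to 23.3 and 3.00 to 7.64 CPM. The lungs were lower than the rims by log2 differences of -3.99 for Fgfbp1 and -6.28 for Wnt7a. Both genes passed the filter of 1 CPM in 5 libraries through the rims, so no p is given. With every lung under 1 CPM for Wnt7a, the size of its difference is uncertain. For these genes the low group was the lungs, with the pellet within or above the range of the primary tumor.

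**Figure D4:**
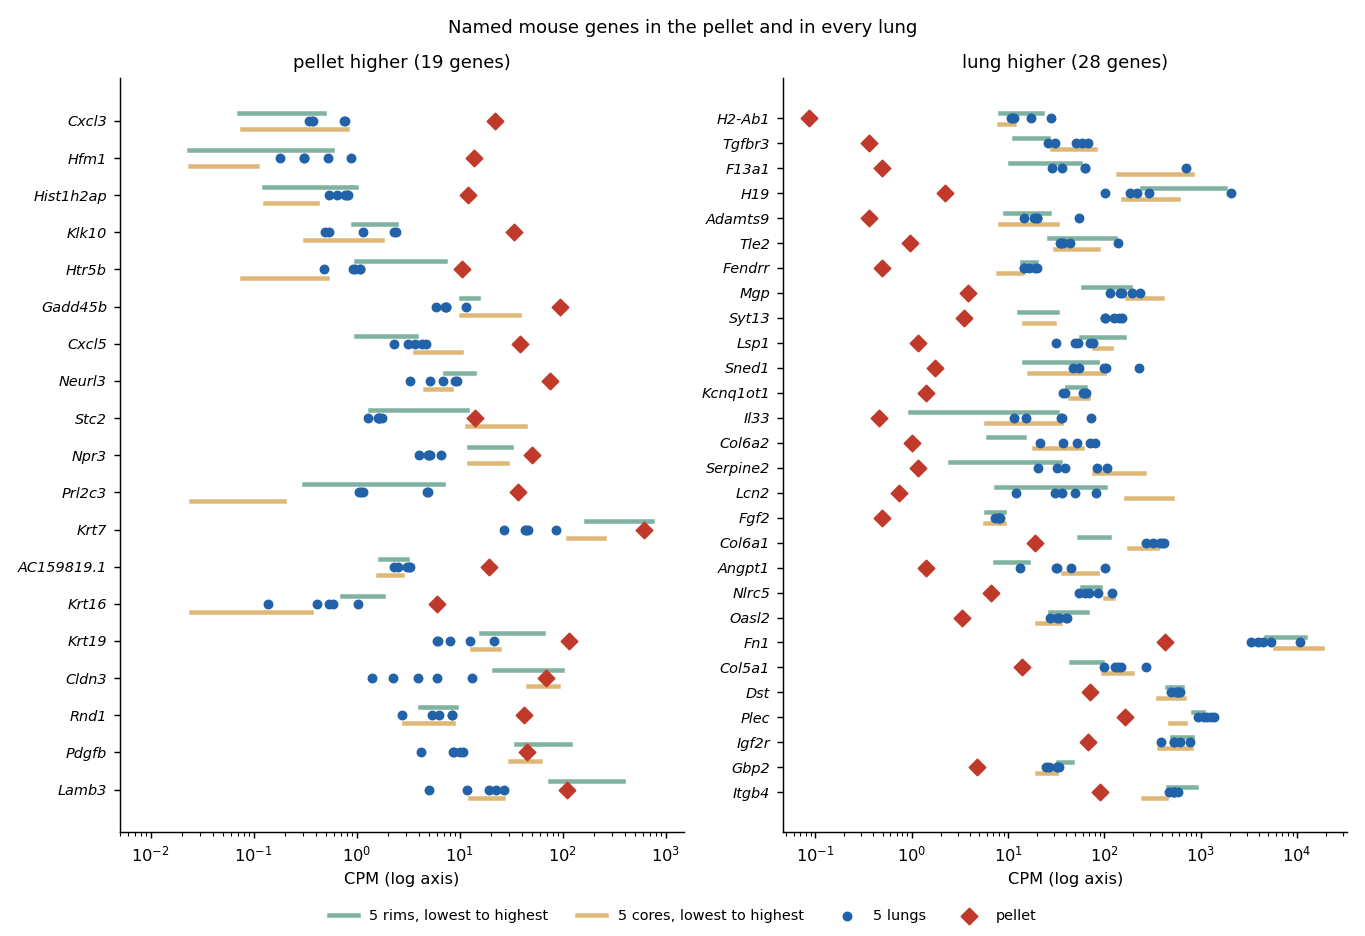
CPM on a log axis for the 19 named genes with the pellet higher and those with the lungs higher, 1 of the 29 not shown, ordered by the gap between the pellet and the nearest lung; diamonds are the pellet, dots the 5 lungs, and bars run from the lowest to the highest of the 5 rims (green) and 5 cores (gold). Krt7 in the pellet (616 CPM) lies within the rims (168 to 728 CPM), and Tgfbr3 in the pellet (0.358 CPM) lies below every xenograft library.

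Matrix genes were higher in the lungs. Of 19 collagen and matrix genes that passed, 15 lay below all 5 lungs in the pellet, where 47.1% of all genes did, 7 were outside with the lungs higher (5.96% of all genes were) and none with the pellet higher. Of the 19 genes 8 were open to spillover, which can raise the lungs, 1 of them among the 7 outside, and the part of spillover in the count was not tested. The list's median difference was -1.92 on the log2 scale, and -1.26 with the length trend removed. Col6a1, a chain of the microfibril-forming collagen VI (chromosome 10, 76708792 to 76726168), was at 19 CPM in the pellet and at 319, 271, 382, 395 and 414 CPM in the lungs, 356 ± 59.7 (SD, n = 5). Col6a2, its neighbour on the chromosome and partner chain (76595762 to 76623630), was at 1.00 CPM in the pellet, 29 reads, and at 36.9, 21.4, 79.1, 70.7 and 51.9 CPM in the lungs. The pellet lay 14.2-fold and 21.3-fold below the lowest lung. The same lung values were higher than those of the rims, by log2 differences of 2.20 (SE 0.18, limma adjusted p = 5.76e-05) and 2.47 (SE 0.34, limma adjusted p = 0.000929).

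Fn1, fibronectin (chromosome 1, 71585520 to 71653200), was the most abundant of the group, at 429 CPM in the pellet and at 10789, 3928, 4407, 5406 and 3312 CPM in the lungs. The lung of Rat3789 was the highest, with no other lung above 5406 CPM, and the gap to the lowest lung, Rat3877, was 7.73-fold. Rims (4784 to 12050 CPM) and cores (5848 to 18065 CPM) were at or above the lungs. Col5a1, a fibril-regulating collagen, was at 13.8 CPM in the pellet and 98.1 to 269 CPM in the lungs. Fn1 and Col5a1, with exonic lengths of 8315 and 8406 bases, came inside 4-fold with the length trend removed, while Col6a1 and Col6a2 did not. Of the fibroblast collagens, Col1a1 was at 0.494 CPM in the pellet and 0.770 to 11.2 CPM in the lungs, and Col3a1 at 0.085 against 0.216 to 2.44 CPM, both open to spillover. Col4a1, a basement membrane collagen, was at 197 CPM against 249 to 560 CPM. The 4 members within the range of the lungs were Postn, Sparc, Tnc and Thbs1.

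Interferon-stimulated genes were higher in the lungs at low levels in both. Of 29 that passed, 25 lay below all 5 lungs in the pellet (47.1% of all genes did) and 4 were outside by 4-fold, all with the lungs higher (5.96% of all genes were). The median difference was -1.50 on the log2 scale, and 6 of the 29 were open to spillover, none of them among the 4. Oasl2, an antiviral protein of the oligoadenylate synthetase family, was at 3.35 CPM in the pellet and at 32.0, 39.8, 27.3, 40.8 and 33.8 CPM in the lungs. Gbp2, a GTPase induced by interferon gamma, was at 4.75 CPM in the pellet and at 24.9, 32.4, 32.6, 34.0 and 26.4 CPM in the lungs. The lungs were close to one another in both genes, and the pellet lay 8.14-fold and 5.24-fold below the lowest. Rims, at 27.3 to 66.1 and 33.2 to 46.0 CPM, were at the level of the lungs or above. Ifit2 lay above all lungs, at 23.8 CPM in the pellet and 11.9 to 20.9 CPM in the lungs, and Isg15, Ifit3 and Cxcl10 lay within their range, Cxcl10 at 4.99 CPM against 0.615 to 5.03 CPM. The other genes outside by 4-fold were Rsad2, at 0.153 CPM in the pellet and 0.932 to 5.02 CPM in the lungs, and Ifi44, at 0.596 against 3.07 to 15.0 CPM.

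Genes of MHC class I antigen presentation had the same direction with smaller gaps. Of 16 that passed, 15 lay below all 5 lungs in the pellet, where 47.1% of all genes did, and 1 was outside by 4-fold, near the 5.96% of all genes, with a median difference of -1.04 on the log2 scale. H2-K1, a class I heavy chain, was at 253 CPM in the pellet and 492 to 727 CPM in the lungs, and B2m, its light chain, at 420 against 688 to 1278 CPM. Psmb8, a subunit of the immunoproteasome, was at 13.3 against 39.8 to 84.3 CPM. Nlrc5, the transactivator of class I genes, was the member outside by 4-fold, at 6.69 CPM in the pellet and at 121, 62.5, 69.2, 86.0 and 55.2 CPM in the lungs. It is 7578 bases long and came inside 4-fold with the length trend removed. The interferon and class I medians were negative under each of 4 other scalings, at -1.20 to -1.54 and -0.75 to -1.09, and with the length trend removed, at -1.53 and -1.0.

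H2-Ab1, a class II chain that presents antigen to helper T cells (chromosome 17, 34257689 to 34269419), had the widest gap with the lungs higher among the genes named by the rule. The pellet held 2 reads of it, and the lungs 28.1, 11.0, 11.5, 17.2 and 10.7 CPM. The ratio of the lowest lung to the pellet was 157, with a 95% counting interval of 43.4 to 1296. Rims and cores were at 8.21 to 22.6 and 8.16 to 11.6 CPM. H2-Ab1 has no rat gene of the same symbol, so its spillover estimate, 2.40% at most, rests on 18 and 2 mouse reads in the glands alone. Rat reads from a transcript more abundant in lung than in gland would not show in that estimate.

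The other wide gaps with the lungs higher included a receptor and secreted proteins. Tgfbr3, a coreceptor for TGF-beta, was at 0.358 CPM in the pellet and at 67.2, 26.0, 58.8, 50.5 and 30.8 CPM in the lungs. The gap to the lowest lung was 72.8-fold, and every rim and core was also above the pellet, from 11.5 CPM. Tgfbr3 was higher in the lungs than in the rims by a log2 difference of 1.18 (SE 0.29, limma adjusted p = 0.0157). Mgp, an inhibitor of matrix calcification, was at 3.83 CPM in the pellet and 113 to 237 CPM in the lungs, and Lsp1, an actin-binding protein best known from leukocytes, at 1.17 against 31.6 to 76.5 CPM. Sned1, a matrix protein, was at 1.75 CPM against 46.7 to 226 CPM.

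Syt13, an atypical synaptotagmin of vesicle traffic (chromosome 2, 92915098 to 92956058), was higher in the lungs than in the pellet and in the primary tumor. It was at 3.52 CPM in the pellet and at 141, 103, 126, 101 and 153 CPM in the lungs, 125 ± 22.9 (SD, n = 5). The rims held 13.0 to 32.5 CPM and the cores 14.8 to 30.1 CPM, so the pellet was the lowest, the primary tumor in between and the lungs the highest, with no overlap. The log2 difference between lung and rim was 2.70 (SE 0.23, limma adjusted p = 9.47e-05). Rcan2, an inhibitor of calcineurin named after its values were seen, was also high in the lungs, at 0.664 CPM in the pellet and 15.5 to 36.9 CPM in the lungs, while the rims, at 0.175 to 2.07 CPM, spanned the pellet's level and the cores, at 4.93 to 10.3 CPM, lay above it. Its log2 difference between lung and rim was 4.71 (SE 0.59, limma adjusted p = 0.000568).

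For several genes with the lungs higher, 1 lung stood above the rest. F13a1, a clotting factor chain, was at 0.494 CPM in the pellet and at 711, 62.5, 62.8, 28.5 and 36.6 CPM in the lungs. Adamts9, a secreted metalloprotease, was at 0.358 CPM in the pellet and at 54.0, 20.2, 19.8, 14.6 and 18.6 CPM, and Tle2, a corepressor, at 0.971 CPM in the pellet and at 137, 35.6, 34.9, 44.1 and 37.1 CPM. In all of them the lung of Rat3789 was the high one, and the gap is measured to the lowest lung, so the high lung does not enter it. Over all genes that passed, the highest lung was a median of 1.37-fold the lowest, and 450 genes (3.51%) spanned 4-fold or more among the lungs themselves.

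Noncoding and imprinted genes followed the direction of their class. H19, an imprinted long noncoding RNA, was at 2.23 CPM in the pellet and at 2060, 220, 184, 101 and 294 CPM in the lungs, with a spillover estimate of up to 21.3%. Kcnq1ot1, the imprinted antisense RNA of the Kcnq1 locus, was at 1.41 CPM in the pellet and 37.5 to 64.8 CPM in the lungs, and Fendrr, a long noncoding RNA, at 0.494 against 14.8 to 20.1 CPM. No label or header says whether reads were counted by strand, so reads of an antisense RNA and of the gene opposite cannot be told apart. Igf2r, an imprinted protein-coding gene for the receptor that removes insulin-like growth factor, was at 67.6 CPM against 386 to 783 CPM, and with 8887 bases it came inside 4-fold with the length trend removed. Of the long noncoding or unconfirmed genes that passed, 34.0% were higher in the lungs, and the class median was -1.56 on the log2 scale. H19, Kcnq1ot1 and Fendrr shared that direction with wider differences, at -7.08, -5.19 and -5.10. Kcnq1ot1 and Fendrr were named for the width of their gaps.

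Of 13 angiogenic genes that passed, 1 lay above all 5 lungs in the pellet and 9 below, beside 34.0% and 47.1% of all genes. Their median difference was -0.62 on the log2 scale, beside -0.16 for all genes. Pdgfb, a growth factor that recruits pericytes, was at 44.6 CPM in the pellet and at 10.8, 8.49, 4.21, 10.1 and 8.84 CPM in the lungs, 4.14-fold above the highest. The rims, at 35.3 to 118 CPM, and the cores, at 30.5 to 59.9 CPM, overlapped the pellet, and the lungs were lower than the rims by a log2 difference of -3.04 (SE 0.32, limma adjusted p = 0.000243). Fgf2, a fibroblast growth factor, was at 0.494 CPM in the pellet, 14 reads, and at 8.23, 7.90, 7.97, 7.33 and 8.04 CPM in the lungs, which were nearly equal. Angpt1, a ligand of the endothelial receptor Tie2, was at 1.41 CPM in the pellet and 13.2 to 100 CPM in the lungs, with a spillover estimate of up to 18.4%. Vegfa, the main endothelial growth factor, differed less, at 22.4 CPM against 34.7 to 91.1 CPM. Of 13 that passed, 1 was outside with the pellet higher and 3 with the lungs higher. The shares were 4.18% and 5.96% of all genes, and 0.733% and 4.25% of protein-coding genes.

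Few complement and acute phase genes passed, 5 of 9 in the table, and 3 of those were outside with the lungs higher, beside 5.96% of all genes. Of the 5 genes 2 were open to spillover, 1 of them among the 3 outside, and the part of spillover was not tested. C4b, a complement component, was at 0.085 CPM in the pellet, 2 reads, and 4.03 to 16.7 CPM in the lungs. Lbp, which carries bacterial lipopolysaccharide, was at 0.187 CPM against 3.12 to 16.7 CPM. The central component C3 was within the range of the lungs, at 4.61 CPM against 2.24 to 5.31 CPM. Serpine2, an inhibitor of secreted serine proteases, was at 1.17 CPM in the pellet and at 39.4, 83.1, 107, 20.5 and 32.5 CPM in the lungs. It was the only 1 of 15 protease genes that passed to be outside by 4-fold, near the 5.96% of all genes.

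Proliferation genes were modestly higher in the pellet, and none was outside by 4-fold. Of 20 genes of the G2 phase and mitosis, 16 lay above all 5 lungs and 3 below, beside 34.0% and 47.1% of all genes, with a median difference of 0.78 on the log2 scale. Cdk1, the kinase that drives mitosis, was at 297 CPM in the pellet and 134 to 185 CPM in the lungs, and Cdc20, an activator of the anaphase complex, at 309 against 119 to 162 CPM. The members below all lungs were Mki67 (229 against 361 to 533 CPM), Cenpe and Cenpf. Of 20 replication genes, 18 lay above all 5 lungs and none below, against the same shares, with a median of 0.51. Mcm5, of the replicative helicase, was at 432 CPM against 172 to 216 CPM.

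Cholesterol synthesis genes were higher in the pellet to a similar degree. Of 21 that passed, 15 lay above all 5 lungs and 1 below (34.0% and 47.1% of all genes did), the median difference was 0.81 and none was outside by 4-fold. Msmo1, a sterol oxidase, was at 215 CPM in the pellet and 51.6 to 96.4 CPM in the lungs, and Idi1, an isomerase of the isoprenoid pathway, at 73.3 against 16.9 to 28.3 CPM. In the lungs 12 of the 21 were also lower than in the rims by limma, and none was higher, beside 10.2% and 9.91% of all genes tested.

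Ribosomal protein genes all lay above the lungs, 25 of 25 where 34.0% of all genes did, with a median of 0.98 and none outside by 4-fold. These are among the shortest genes, with a median length of 1270 bases, and the median was 0.60 with the length trend removed. Rplp0, of the ribosomal stalk, was at 4965 CPM in the pellet and 1604 to 1952 CPM in the lungs. Stress genes of amino acid and protein supply had a median of 0.60, with 9 of 19 above all lungs and 5 below, beside 34.0% and 47.1% of all genes. Phgdh and Psat1, enzymes of serine synthesis, were at 570 against 124 to 251 CPM and at 492 against 111 to 256 CPM, while Xbp1, a factor of the unfolded protein response, was lower in the pellet, at 64.7 against 120 to 293 CPM.

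The hypoxia, glycolysis, protease and laminin lists had medians near that of all genes, and the sign of some depended on the scaling. The hypoxia list had a median of -0.23 with 3 of 23 genes above all lungs and 8 below (34.0% and 47.1% of all genes), and its sign was positive with TMM scaling (0.06) or DESeq2 size factors (0.06). Car9, a carbonic anhydrase induced by low oxygen, was at 39.6 CPM in the pellet and 43.5 to 196 CPM in the lungs, and Bnip3, a mitophagy receptor, at 81.9 against 18.4 to 69.9 CPM. Glycolysis had a median of 0.10, with Ldha, lactate dehydrogenase, at 2003 CPM against 655 to 1266 CPM and Hk2, a hexokinase, at 37.0 against 75.8 to 116 CPM. The protease list (-0.24) and the laminin list (-0.06) also changed sign, to 0.06 and 0.23 with TMM scaling. Lysosomal genes had a median of -0.53, immediate early genes -0.54, heat shock genes 0.26, Nrf2 targets 0.39 and Cdk inhibitors and cyclins 0.13, with no member outside by 4-fold. With the length trend removed the immediate early median was -0.17 and the lysosomal median -0.57. Of 19 lysosomal genes 3 lay above all lungs and 13 below, and of 15 Nrf2 targets 10 above and 1 below. Over all genes the shares were 34.0% and 47.1%. Amino acid transporters had a median of -0.75, and -0.15 with the length trend removed. Outside with the lungs higher was 1 of 10 (5.96% of all genes were), Slc7a3, at 0.289 CPM against 1.38 to 2.37 CPM. With TMM scaling or DESeq2 size factors none was outside. Of the 10 transporters 2 lay above all lungs and 8 below, beside the same 34.0% and 47.1%. Scaling moved the median of all genes from -0.16 to -0.21 with total counts, 0.02 with upper quartiles and 0.13 with TMM or DESeq2 size factors.

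**Figure D5:**
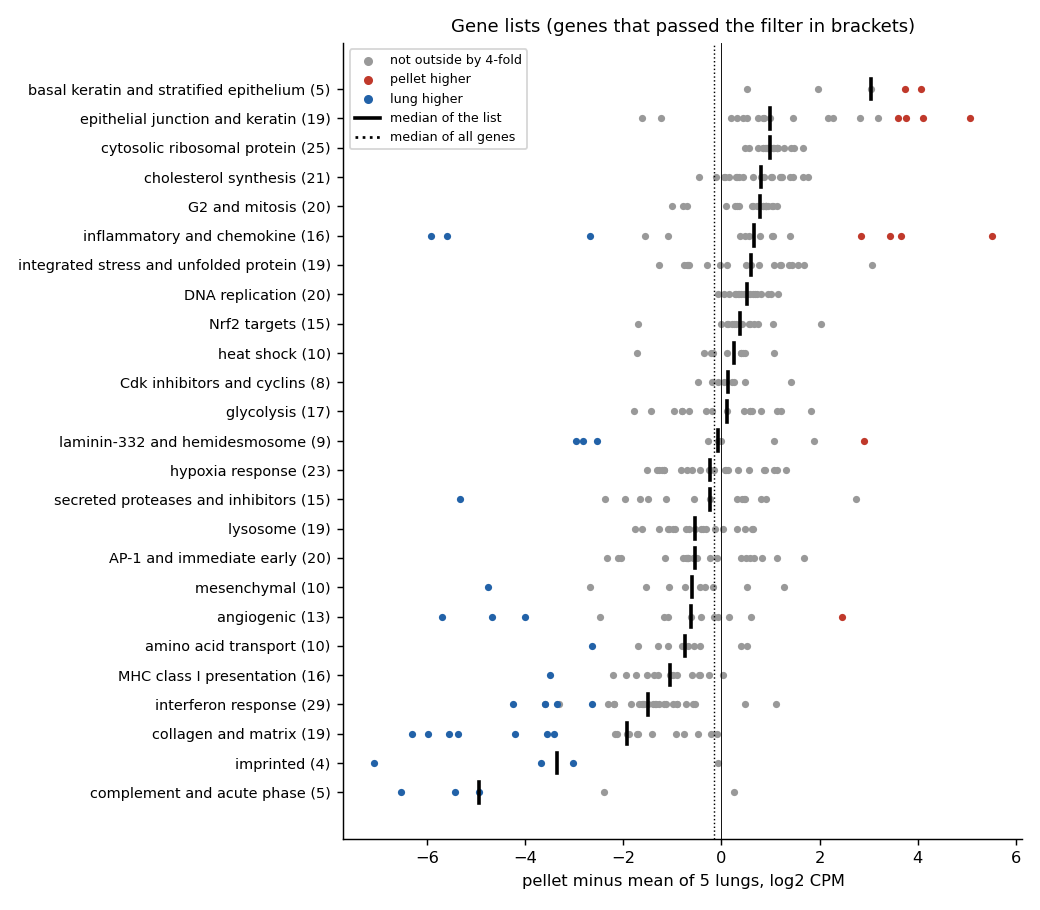
Each point is a gene of a list that passed the filter, placed by its pellet minus mean lung difference on the log2 scale; black bars are the list medians, the dotted line the median of all genes, and red and blue points are outside all 5 lungs by 4-fold. The collagen and matrix median is -1.92 and the epithelial median 1.00, beside -0.16 for all genes.

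Mesenchymal genes were of mixed direction. Zeb1, a repressor of epithelial genes, was at 0.153 CPM in the pellet and 3.05 to 5.31 CPM in the lungs, with a spillover estimate of up to 20.8%, and Zeb2, its relative, at 28.7 against 73.0 to 93.7 CPM. Vim, vimentin, was abundant in both, at 3782 CPM against 4071 to 5722 CPM, and Twist1 was at 38.7 against 72.1 to 92.8 CPM. Of 10 that passed, 2 lay above all lungs and 6 below, near the 34.0% and 47.1% of all genes, with a median of -0.59. Id2 and Id3, inhibitors of DNA-binding factors named after their values were seen, were outside with the pellet higher, at 137 against 21.6 to 33.9 CPM and at 291 against 27.5 to 68.6 CPM.

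Markers of other cell types in the mouse values differed by list. The endothelial markers in the table (6 of 10) summed to 1.50 CPM in the pellet and 4.66 to 14.2 CPM in the lungs, the macrophage markers (5 of 10) to 5.12 and 6.53 to 10.4 CPM, and the neutrophil markers (2 of 8) to 0.136 and 0.046 to 0.281 CPM. The airway markers (2 of 8) summed to 1.33 and 4.60 to 9.35 CPM. Open to spillover were 4 of the 6 endothelial, 4 of the 5 macrophage, 2 of the 2 neutrophil and 1 of the 2 airway markers. The alveolar type 1 markers (5 of 8) summed to 266 CPM in the pellet and 217 to 287 CPM in the lungs, most of it from Emp2 (176 CPM in the pellet) and Cav1 (70.2 CPM), so their sum overlapped between pellet and lungs. The alveolar type 2 markers (5 of 10) summed to 120 and 182 to 228 CPM, nearly all of it from Abca3, Etv5 and Lpcat1, which the pellet also expressed. The surfactant gene Sftpb was at 0.017 CPM in the pellet, 0 reads, and 0.099 to 0.591 CPM in the lungs. Its spillover estimate was up to 5186% of its mouse reads. The fibroblast and smooth muscle markers (7 of 10) summed to 53.6 CPM in the pellet and 398 to 856 CPM in the lungs, from Pdgfra, a receptor for platelet-derived growth factor (15.5 against 101 to 243 CPM), and Npnt, a matrix protein (37.1 against 295 to 717 CPM). The other fibroblast markers, Pdgfrb, Thy1, Dpt, Myh11 and Cnn1, were at most 2.35 CPM in every lung, and all were open to spillover. Muscle markers (6 of 10) summed to 4.22 and 14.0 to 30.7 CPM, and the 2 that were outside with the lungs higher, Tnnt3 and Myh1, were open to spillover. Ccr2, a chemokine receptor of monocytes, was at 0 reads in the pellet and 2.76 to 6.50 CPM in the lungs. With no rat gene of the same symbol, its spillover estimate of up to 1.40% rests on the glands' expression alone.

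The 4-fold line cut through a continuous range of gaps. Tbc1d2 (4.02-fold), Id2 (4.06-fold) and Arhgdig (4.10-fold) were just inside the group with the pellet higher, and Odf3l1, Cldn4 (both 3.81-fold) and Lurap1l (3.76-fold) just short of it. On the other side Pkdcc, Ppp1r3f and Rgs11 (all 4.01-fold) were just inside, and Rhoj (4.00-fold when rounded), Igip and Pcdhb19 (both 3.99-fold) just short. Between 3-fold and 4-fold lay 108 more genes with the pellet higher and 324 with the lungs higher.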

How the data were processed

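Labels give poly(A)-selected libraries, and the submitters' processing notes name Trim Galore, STAR, featureCounts, limma, GRCm38 and Rnor_6.0. No label or header gives the species assignment or strand setting. The deposited control tables hold raw counts per gene for the pellet and 2 glands, whose columns were not matched to single gland samples. The authors' deposited table of lungs, rims and cores holds a normalized signal on a voom CPM scale: whole reads plus 0.5, times a constant per library (100% of values whole within 0.01). Its rows named in and out were taken as core and rim.

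Pellet CPM were counts plus 0.5, scaled over shared genes. Gene types, lengths (of the longest transcript) and coordinates came from GENCODE M21 (17643 IDs matched, 29 not). Spillover into a lung was estimated from gland mouse reads, and through the rat gene of the same symbol (its own rate with at least 50 gland rat reads, otherwise 1.91%); the larger was used. Lung and rim were compared with limma 3.58.1 on log2 values of genes of at least 1 CPM in 5 libraries, unblocked; edgeR 4.0.16 and DESeq2 1.42.0 on recovered reads were alternatives. Lungs and rims of 4 rats are paired by animal; their deviations correlated by 0.05, 0.30, 0.19 and 0.27. The steps were tested on simulated data. P-values assume that rats are independent.

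Named genes were the 12 of at least 10 CPM with the widest gap in each direction that were not open to spillover (Gm, Rik and pseudogenes left out), and up to 4 outside genes of at least 5 CPM per list. Members and lists were chosen with earlier results of these data known. Intervals cover counting error only. Promoter motifs and sequences were not analysed here. A few named genes are not reported here.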

Additional observations from a re-analysis of the deposited data

Results flagged for a closer look

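Among the 48 named genes, 7 had 1 lung far from the other 4 by Dixon's ratio, which flags about 1 in 20 groups by chance. In 5 of the 7 that lung was Rat3789 and was the highest: F13a1 at 711 CPM, Adamts9 at 54.0 CPM, Tle2 at 137 CPM, Fn1 at 10789 CPM and H19 at 2060 CPM. Gadd45b was highest in the lung of Rat3869, at 11.5 CPM, and Htr5b was lowest in the lung of Rat3875, at 0.484 CPM.

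The pellet also held 551 mouse genes of at least 1 CPM that are not in the table of the lungs, a signal in data that the comparison does not use. Of these, 513 are pseudogenes and 27 protein-coding. Reads on genes outside the table of the lungs came to 80495 of the pellet's 29446694.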

How the results depend on the processing

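The counts of genes outside the lungs moved with the threshold, the filter on low values and the spillover limit. A 2-fold line gave 978 genes with the pellet higher and 1996 with the lungs higher (protein-coding 328 and 1521), and an 8-fold line 325 and 361 (25 and 198). A minimum of 5 CPM gave 311 and 310 (46 and 262). Without the filter on low values 2282 genes were higher in the lungs (877 protein-coding). Leaving out genes open to spillover left 148 genes higher in the pellet (35 protein-coding), and using the mean of the lungs gave 142 protein-coding genes. Genes higher in the lungs and open to spillover numbered 88 at 5% and 34 at 25%, beside 54 at 10%. Leaving out each lung in turn, which can only widen a gap to the nearest lung, gave 542 to 569 and 781 to 824 genes (protein-coding 83 to 98 and 487 to 516). Other scalings, 3 reads added and subtracting the estimate kept these counts within 1.5 times.

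Of the 19 named genes with the pellet higher, Lamb3 alone came inside 4-fold, with total counts; of the 29 with the lungs higher, Lcn2 did with spillover subtracted and Nlrc5, Fn1, Col5a1, Dst, Plec, Itgb4 and Igf2r with the length trend removed. None changed direction.

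For lung against rim, leaving out 1 library gave 681 to 1643 genes higher and 841 to 1624 lower. Counts were over 1.5 times smaller without the lung of Rat3877 (681 and 841), the lung of Rat3875 (831 higher), the rim of Rat3867 (811 and 878) or the rim of Rat3869 (848 higher). The rat block on 4 rats gave 1146 and 1216 genes, beside 907 and 1013 for the same libraries unblocked. The block changed none of the calls printed for single genes and gave 15 of 18 epithelial and 11 of 21 cholesterol genes lower in the lung. The motif search was not run.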
